A study of Saccharomyces cerevisiae with 14 samples.

Results

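The cytosolic ribosomal protein (RP) genes of *S. cerevisiae* were taken as all protein-coding genes of the S288C R64 annotation whose symbol starts with RPL or RPS followed by a digit, which gave 132 genes of 6002 nuclear protein-coding genes. They comprise 76 large-subunit (RPL) and 56 small-subunit (RPS) genes in 75 families, of which 57 are duplicated pairs and 18 are single-copy genes. Sef1 is a zinc cluster transcription factor, and its binding had been mapped by ChIP-seq in strain W303ScSef1TAPNB1-1, a MATa strain with the SEF1-TAP::FRT allele, which puts a TAP tag on Sef1 in every sample, and the usual mutations of the W303 background in CAN1, LEU2, ADE2, URA3, TRP1 and HIS3, shared by all samples. Cells were moved into YPGly, a glycerol medium that forces respiration (3 repeats), or YPD, a glucose medium that allows fermentation (4 repeats), for 4.5 h at 30°C, and each ChIP library had an input library of the same culture, making 14 samples. The YPGly cultures were fixed at 0.4 OD600/ml and 500 OD600 of cells were used, against 1.0 OD600/ml and 1500 OD600 of cells in YPD, so the medium and the amount of cells cannot be told apart. YPGly repeat 3 was sequenced as read pairs in a run of its own, no untagged strain was analysed here, and reads of a W303 strain were mapped to the S288C genome.

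RP genes encode the proteins that, with ribosomal RNA, build the cytosolic ribosome. They are among the most highly transcribed genes of fast-growing yeast on glucose, and most of their promoters are activated through Rap1 together with Fhl1, Ifh1 and Sfp1. Many are kept as paralogue pairs from the ancient genome duplication, and a large share of them hold an intron near the 5′ end.

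The 3 YPGly lists held 373 to 520 peaks and the 4 YPD lists 528 to 771 peaks. A peak was linked to a gene when its position lay inside the gene or within 500 bp of it. Its enrichment is the authors' fold ratio of ChIP over input, which is not on a common scale across lists. Peak intervals that overlapped were merged into sites, and a site was called reproducible for a gene when 3 or more repeats of one medium held a peak linked to it. Where a list held several peaks in a site, the enrichment of the site in that list is their mean. The lists do not give read numbers, so the depth of each library is unknown beyond the nominal depth of the study's methods, and errors are given as SDs over repeats.

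The sites of RPS31 and RPL15A, on which much of the account below turns, are printed from the S288C R64 genome as 250-bp windows on the plus strand, 5′ to 3′. The first is the strongest RP site in YPD, in RPS31 at XII:499181-499430, and the second is the RPL15A site that every list held, at XII:202017-202266. Capitals mark CGG and CCG triplets, the unit of zinc cluster motifs.
RPS31: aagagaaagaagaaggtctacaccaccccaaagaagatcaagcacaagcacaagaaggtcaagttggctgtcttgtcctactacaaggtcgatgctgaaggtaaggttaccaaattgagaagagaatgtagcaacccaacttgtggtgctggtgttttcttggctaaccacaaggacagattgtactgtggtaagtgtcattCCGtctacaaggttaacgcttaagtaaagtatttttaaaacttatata
RPL15A: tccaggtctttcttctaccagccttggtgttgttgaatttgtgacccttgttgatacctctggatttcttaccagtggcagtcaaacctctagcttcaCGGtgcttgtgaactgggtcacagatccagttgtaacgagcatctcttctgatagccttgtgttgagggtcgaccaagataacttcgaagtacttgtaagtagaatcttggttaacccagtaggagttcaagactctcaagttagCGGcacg
The RPS31 window held 1 marked triplet and the RPL15A window 2.

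Fewer RP genes were hit in YPGly than in YPD. A peak was linked to 8, 3 and 3 of the 132 RP genes in YPGly repeats 1 to 3, against 29, 38, 32 and 19 in YPD repeats 1 to 4. No YPGly list reached any YPD list, and the means were 4.67 ± 2.89 genes in YPGly (SD, n = 3) and 29.5 ± 7.94 genes in YPD (SD, n = 4), a difference of -24.8 genes with p = 0.0286 in a two-sided exact permutation test, the smallest p that 35 splits allow. After Benjamini-Hochberg adjustment over the 7 list comparisons made here, this p was 0.0667, above the threshold of 0.05. Without YPGly repeat 3, the separately sequenced library, the difference was -24.0 genes. The exact permutation p was 0.0571, above the threshold, with a flank of 0, 250 or 1000 bp. It was the same with peaks of at least 2-fold enrichment only, and with the P-stalk genes added. The direction was kept in each of these settings, and at 0 bp the media still did not overlap.

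The YPD lists were longer, so the same count was set beside all genes and as a share of each list. All protein-coding genes were hit at 8.61, 6.61 and 6.81% in YPGly, against 8.78, 12.3, 10.1 and 9.95% in YPD. RP genes stood below these shares in every YPGly list, at 6.06, 2.27 and 2.27%, and above them in every YPD list, at 22.0, 28.8, 24.2 and 14.4%. Of the peaks themselves, 1.35, 0.804 and 0.759% were linked to an RP gene in YPGly, against 7.20, 6.87, 7.15 and 4.75% in YPD. This share differed by -5.52 percentage points (exact permutation p = 0.0286, adjusted p = 0.0667). For all genes the difference was -176 genes, again with no overlap of the media (exact permutation p = 0.0571, adjusted p = 0.08). With every list held to its 373 peaks of highest score, the means were 2.33 RP genes in YPGly and 7 in YPD. Most RP genes hit in YPD were thus hit by peaks outside the 373 of highest score. The RP share of the peaks then averaged 0.626% in YPGly and 2.21% in YPD. The share of all genes hit by the shortened lists is not given here. That RP genes stood above all genes in YPD is therefore shown for the full lists only.

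**Figure D1:**
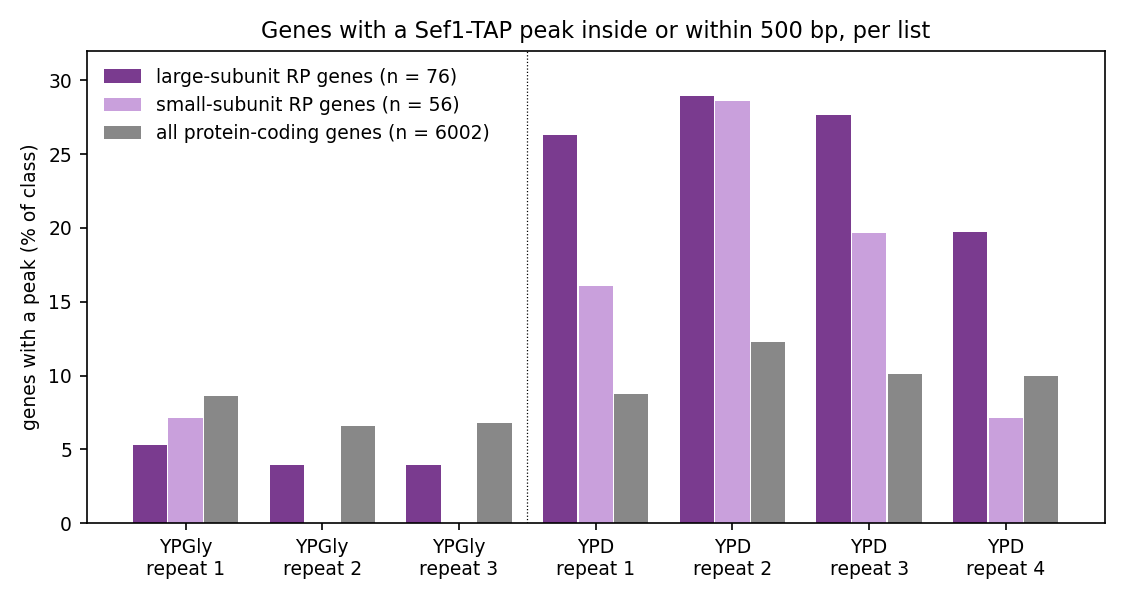
Percentage of genes with a peak inside or within 500 bp (y axis) in each of the 3 YPGly and 4 YPD lists (x axis), for large-subunit RP genes, small-subunit RP genes and all protein-coding genes. Large-subunit genes lie at 3.95 to 5.26% in YPGly and at 19.7 to 28.9% in YPD.

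Large-subunit genes accounted for -16.2 of the difference in mean and small-subunit genes for -8.67. Peaks were linked to 4, 3 and 3 of the 76 large-subunit genes in YPGly, against 20, 22, 21 and 15 in YPD (exact permutation p = 0.0286, adjusted p = 0.0667). For the 56 small-subunit genes the numbers were 4, 0 and 0 in YPGly, against 9, 16, 11 and 4 in YPD, and the media overlapped at 4 genes (exact permutation p = 0.0857, adjusted p = 0.1). The percentage hit in the large subunit minus that in the small subunit averaged 2.01 ± 3.36 points in YPGly (SD, n = 3) and 7.80 ± 5.29 points in YPD (SD, n = 4), and this difference between media was not separated from the spread between repeats (exact permutation p = 0.171).

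Over all lists, 61 RP genes (46.2%) had a peak in at least 1 list, against 16.8% of all genes. Of these, 30 were hit in 1 list and 12 in 2 lists, and 71 RP genes were hit in none. Calls in single lists were common: of 85 merged RP sites, 45 (52.9%) came from 1 list, against 26.4% of the 1066 sites of the genome. The 10 RP genes with any YPGly peak were RPL10, RPL13B, RPL15A, RPL43B, RPL8B, RPL9B, RPS16A, RPS30B, RPS7A and RPS9A, and of them only RPL43B had no YPD peak.

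A reproducible site was found at 19 RP genes (14.4%), against 10.6% of all genes. In YPGly the number was 2 genes (1.52%), against 5.86% of all genes, and in YPD it was 18 genes (13.6%), against 8.93% of all genes. The 2 YPGly genes were RPL15A and RPL43B. A peak in all 4 YPD lists and no YPGly list was found at 7 RP genes (5.30%), namely RPL14B, RPL3, RPL38, RPL5, RPL8A, RPS31 and RPS7B, against 2.27% of all genes. A site past the end of RPL14B was called in all 3 YPGly lists, but with peaks more than 500 bp from the gene. The reverse, a peak in all 3 YPGly lists and no YPD list, was found at RPL43B alone (0.758%), against 0.916% of all genes. The number in YPD was 11 genes without YPD repeat 3, when calls in each of the 3 remaining YPD lists were required.

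RPS31, which encodes a fusion of ubiquitin and a small-subunit protein, had the strongest RP sites in YPD and no peak in YPGly. Its site in the coding sequence, centred 359 bp past the ATG and printed above, had enrichments of 5.74, 3.59, 4.48 and 5.07 in YPD repeats 1 to 4. A second site, 207 bp past the gene end and inside the neighbouring UPS2 gene, had 4.83, 3.46, 3.42 and 4.56 in the same lists. The third site, 26 bp before the ATG, had 3.06, 2.40, 2.53 and 2.74. The 3 sites covered the promoter, body and end of a gene of 459 bp.

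RPL15A encodes a large-subunit protein of the 60S core and was the 1 RP gene with peaks in all 7 lists. Its site in the coding sequence had enrichments of 2.01, 1.93 and 1.98 in YPGly, against 4.33, 2.95, 3.16 and 3.31 in YPD. The values of YPD repeats 1, 3 and 4 are means over merged peaks, of which the higher had 5.11, 3.43 and 3.59. The lower peaks, at 3.55, 2.89 and 3.02, lay outside the window printed above. Because enrichments are not on a common scale, the site was ranked among the 203 sites called in all 7 lists, where rank 1 is the highest enrichment. It stood at ranks 171, 143 and 147 in YPGly, against 54, 67, 63 and 75 in YPD, a mean shift of 88.9 ranks with no overlap (exact permutation p = 0.0286, adjusted p = 0.0523 over the 203 sites). The other site of this kind, next to RPL14B, stood at ranks 196, 186 and 189 in YPGly, against 110, 150, 163 and 157 in YPD (exact permutation p = 0.0286, adjusted p = 0.0523). Its YPGly peaks and that of YPD repeat 1 lay more than 500 bp from RPL14B, beside the centromere of chromosome VIII, and were therefore not counted as RPL14B peaks. Ranks parted the media at an unadjusted exact permutation p of at most 0.05 at both RP sites (2 of 2), against 54.7% of the 203 sites, and 0 sites passed after adjustment.

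RPL43B, a large-subunit gene, was linked to a strong YPGly site through its 3′ flank only. The site had enrichments of 6.29, 5.63 and 5.56 in YPGly, and no YPD list held a peak there. It was centred 291 bp past the end of RPL43B and 624 bp upstream of the ATG of SFC1, which encodes a mitochondrial succinate and fumarate carrier. Neither the flank of 0 bp nor that of 250 bp linked it to RPL43B.

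**Figure D2:**
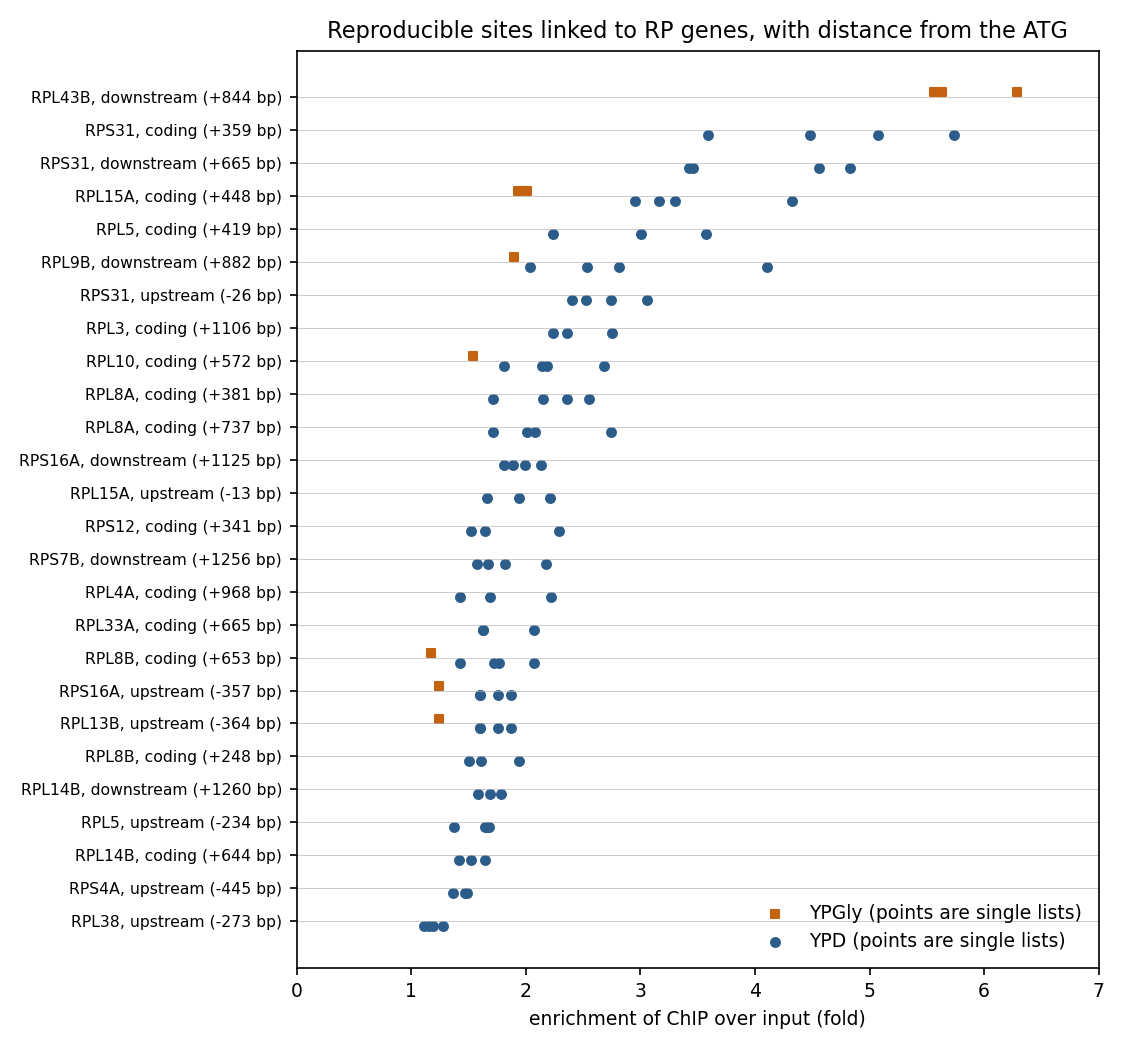
Enrichment of ChIP over input (x axis, fold) in single lists at the reproducible sites of 18 of the 19 RP genes (y axis, with the place and the distance of the linked peaks from the ATG), squares for YPGly and circles for YPD. The RPL43B site has YPGly points only, from 5.56 to 6.29, and the RPS31 sites have YPD points only.

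Among the other large-subunit genes, RPL5, whose protein binds 5S rRNA, had a coding site at 3.57, 2.24 and 3.01 in YPD repeats 1, 2 and 4 and a promoter site at 1.66, 1.37, 1.64 and 1.68 in YPD repeats 1 to 4. RPL9B had a site 307 bp past its end with 2.12 in YPGly repeat 1 and 1.90 in YPGly repeat 3, against 4.11, 2.04, 2.54 and 2.81 in YPD. The peak of YPGly repeat 1 belonged to this site but lay more than 500 bp from RPL9B, so it was not counted as an RPL9B peak. RPL3, whose protein takes part in forming the peptidyl transferase centre, had 2.75, 2.36 and 2.24 in YPD repeats 1, 3 and 4 and no YPGly peak, 57 bp before its end. RPL10, whose protein joins the 60S subunit late, had 1.54 in YPGly repeat 2, against 2.68, 1.80, 2.14 and 2.19 in YPD. The YPGly value of RPL10 lay below all its YPD values and those of the RPL9B site overlapped its YPD values, on scales that are not common to the lists.

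RPL8A and RPL8B were the 1 pair with a reproducible YPD site at both copies. RPL8A had 2 coding sites with means of 2.14 ± 0.436 and 2.19 ± 0.361 in YPD (SD, n = 4 each) and no YPGly peak. RPL8B had 1.17 in YPGly repeat 1, against 2.07, 1.43, 1.77 and 1.72 in YPD, at the first of its 2 coding sites. Across RP genes the mean enrichment of the 25 reproducible YPD sites ranged from 1.18 at RPL38 to 4.72 at RPS31, with a median of 1.86, against 1.76 for the 537 reproducible YPD sites of the genome.

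Small-subunit genes with a reproducible YPD site included RPS12, RPS16A, RPS31, RPS4A and RPS7B. RPS16A and RPL13B, divergently transcribed, shared a promoter site with 1.24 in YPGly repeat 1, against 1.87, 1.60, 1.76 and 1.60 in YPD. RPS16A had a second site 150 bp past its end, at 2.13, 1.81, 1.89 and 1.99 in YPD. RPS12 had 2.29, 1.52 and 1.64 in YPD repeats 1 to 3, in the coding sequence. The sites of RPL4A, RPL14B, RPL33A, RPL38, RPS4A and RPS7B had mean enrichments from 1.18 to 1.81 in YPD, and no YPGly peak was linked to these genes. Both RPL14B sites lay near the centromere of chromosome VIII.

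In YPD most RP peaks lay in gene bodies. Of the 14 links between an RP gene and a peak in YPGly, 42.9% were inside the gene and 28.6% upstream, and of the 169 links in YPD, 58.6% were inside and 19.5% upstream. Over all genes, 14.4% of the links in YPGly and 19.9% in YPD were inside, and 53.5% in YPGly and 45.3% in YPD were upstream. The YPD peaks inside RP genes lay towards the 3′ end: their median was at 80.0% of the gene length, and 75.8% were in the second part of the gene past its midpoint, against 60.9% over all genes. A position within 250 bp of the gene end was found for 47.9% of RP links in YPD, against 26.4% of all links. Within 250 bp of the ATG the shares were 12.4% and 16.3%. These windows were not adjusted for gene length, and RP genes are shorter. A site called in several lists counts once for each list.

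**Figure D3:**
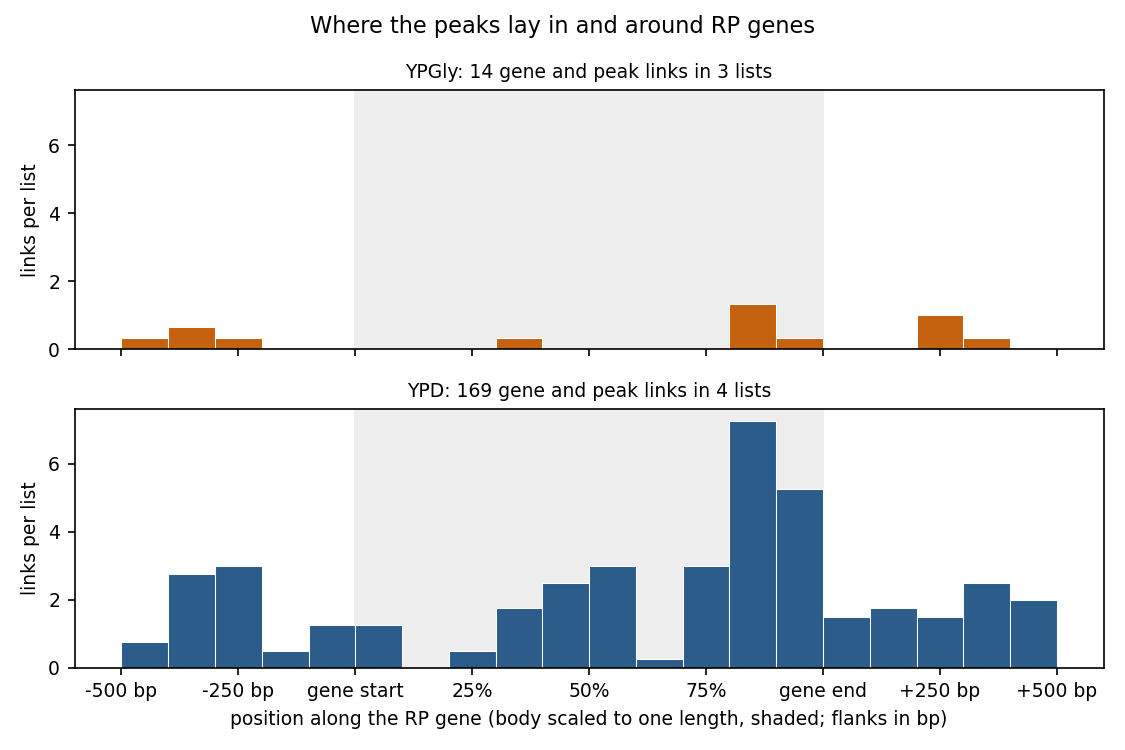
Number of links between RP genes and peaks per list (y axis) along the gene, with the body scaled to one length (shaded) and the flanks in bp, for YPGly (top) and YPD (bottom). The YPD links are densest in the last part of the gene body, and 58.6% of them are inside the gene.

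Peaks inside the gene were linked to 3, 2 and 1 RP genes in YPGly, against 20, 25, 24 and 12 in YPD, with no overlap (exact permutation p = 0.0571, adjusted p = 0.08). The YPD mean of 15.3% of RP genes stood beside 1.88% of all genes. In YPGly repeats 1 to 3 the shares were 2.27, 1.52 and 0.758% of RP genes, against 1.28, 1.00 and 1.10% of all genes. Inside genes, RP genes thus stood below all genes in YPGly repeat 3 only, unlike with the 500-bp flanks. A reproducible YPD site inside the gene was found at 12 RP genes (9.09%), against 1.35% of all genes, although RP genes are shorter, with a median length of 783 bp against 1200 bp. In YPGly it was found at RPL15A (0.758%), against 0.816% of all genes. Of the 26 reproducible RP sites, 57.7% lay inside a gene, against 18.3% of the 645 of the genome. Only 1 of the 26, at RPS7B, had a tRNA gene within 500 bp, against 31.8% of the 645.

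Most pairs had no reproducible YPD site at either copy. A reproducible YPD site was found at both copies of 1 pair (RPL8), at 1 copy of 9 pairs (RPL13, RPL14, RPL15, RPL33, RPL4, RPL9, RPS16, RPS4 and RPS7) and at no copy of 47 pairs. With any YPD peak counted, both copies were hit in 15 pairs, 1 copy in 19 and none in 23. Single-copy genes had a reproducible YPD site in 7 of 18 cases (38.9%), against 11 of 114 paired genes (9.65%), and genes without an intron in 12 of 44 (27.3%), against 6 of 88 with an intron (6.82%). Reads from near-identical copies can be placed at either copy, and 75-mers that recur in the genome covered 62.2% of the RPL4A gene and 21.4% of the RPS4A gene. Their median share over RP genes with a reproducible YPD site was 0%, and 5 of the 26 sites held any. These were coding sites of RPL14B (39.1%), RPL4A (24.2%), RPL15A (10.3%) and RPL8B (9.44%), and the site past the end of RPS7B (38.3%). The site upstream of RPS4A held none, nor did the RPS7B gene itself.

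**Figure D4:**
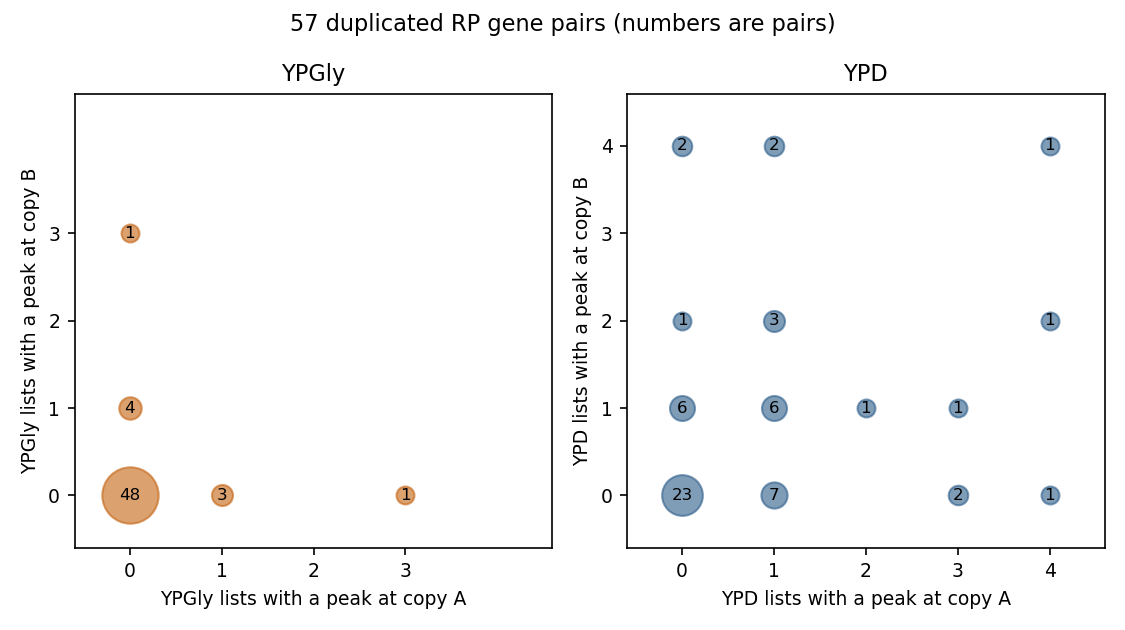
Number of lists with a peak at copy B (y axis) against copy A (x axis) for the 57 duplicated RP pairs, YPGly on the left and YPD on the right, with the number of pairs in each circle. In YPD, 23 pairs have no peak at either copy and 1 pair (RPL8) has a peak at both copies in all 4 lists.

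The pattern CCGN5CGG, the CGG dimer with a 5-bp spacing given for Sef1 and its own reverse complement, was absent as an exact match from the 250-bp windows of all 26 reproducible RP sites (0 of 26), against 61 of 645 reproducible sites (9.46%). It was found at 2 of the 85 RP sites, each called in few lists. RPL6A had a single YPD peak of 1.18 in repeat 4, and RPS30B had 1.71 in YPGly repeat 1, against 1.14 in YPD repeat 2. The match is in capitals in their windows, at XIII:124320-124569 and XV:678917-679166.
RPL6A: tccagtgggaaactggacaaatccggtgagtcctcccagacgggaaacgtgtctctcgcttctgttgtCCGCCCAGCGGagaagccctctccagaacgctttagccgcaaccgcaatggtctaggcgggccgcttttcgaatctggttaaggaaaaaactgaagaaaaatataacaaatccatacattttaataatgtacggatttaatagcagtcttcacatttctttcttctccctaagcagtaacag
RPS30B: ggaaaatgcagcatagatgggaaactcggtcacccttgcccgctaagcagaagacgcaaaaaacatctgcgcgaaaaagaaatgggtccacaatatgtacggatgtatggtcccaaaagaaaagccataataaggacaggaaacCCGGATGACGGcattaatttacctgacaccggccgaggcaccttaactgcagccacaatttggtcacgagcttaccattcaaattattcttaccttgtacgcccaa
In the 500 bp before the ATG, 4 of 132 RP genes (RPL33B, RPL6A, RPS19B and RPS30B, 3.03%) held the pattern, against 2.13% of all genes. A plain Rap1 core, ACCCNNNCA on either strand, was in 50.0% of RP promoters and 13.1% of all promoters, and in 7 of the 18 RP promoters of genes with a reproducible YPD site (38.9%). These are matches of letters only, and overlap of the patterns was not examined.

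Genes around the ribosome were described by the same rule. Over all genes, 16.8% had a peak in at least 1 list, and 5.86% had a reproducible site in YPGly and 8.93% in YPD, so lists of few genes may hold none at these shares. Of the 12 listed regulators of RP genes, RAP1, FHL1, IFH1 and SFP1 among them, none had a peak in any list, nor had any of the 7 genes of RNA polymerase I, and none of 26 ribosome assembly genes had a reproducible site. Among 7 P-stalk and ribosome-bound genes, RPP0, the P-stalk base protein, had a coding site in YPD with 2.12 ± 0.471 (SD, n = 3) and no YPGly call. Of 10 elongation factor genes, 4 were reproducible in YPGly and 5 in YPD (TEF1, EFB1, EFT1, EFT2 and HYP2). Of 17 glycolytic genes, 1 was reproducible in YPGly (GLK1) and 6 in YPD (GLK1, FBA1, TPI1, TDH3, PGK1 and ENO2). A coding site of GLK1 was called in all 7 lists, at 6.15 ± 1.12 in YPGly (SD, n = 3) and 7.03 ± 1.18 in YPD (SD, n = 4). TDH3 had 4 coding sites in YPD with means from 2.26 to 3.06 and no YPGly call. Of 67 mitochondrial ribosomal protein genes, 1 was reproducible in YPGly and 3 in YPD (MRPL15, MRPS8 and MRPL10). The sites of MRPS8 and MRPL10 lay past the gene end, each with a tRNA gene within 500 bp. Sites in coding sequences with YPD calls only were therefore seen at elongation factor and glycolytic genes as well as at RP genes. The part that transcription level, amount of cells or the missing untagged strain has in these calls was not tested.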

How the data were processed

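ChIP-seq of Sef1-TAP had been done in 3 YPGly and 4 YPD cultures, each with its input. Per the labels, the submitters' processing notes name bcl2fastq, FastQC 0.11.8, Trimmomatic 0.36, Bowtie2 2.3.3, DiffBind 2.10.0, deepTools and genome R64, and the peak caller is not given in the sources used here. The authors called peaks in each ChIP library against its own input without pooling, and the deposited lists give for each peak a score of ChIP signal over input, an FDR (a q-value), which the deposited interval lists hold as -log10, and a fold ratio of ChIP over input as a maximum-likelihood estimate and a lower bound. The lists of 2 YPGly repeats sit on records titled as ChIP and the rest on input records; the medium and the repeat number were taken from the labels. The lists hold no read numbers, and the depth of single libraries is unknown beyond the nominal depth in the study's methods.

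Genes, CDS and sequences came from the NCBI RefSeq R64 assembly, of which every peak position lay inside its chromosome. Intervals overlapping by at least 1 bp were merged. A reproducible call needed at least 3 repeats of a medium with peaks linked to the gene. Lists were compared by two-sided exact permutation tests over the 35 splits, at a threshold of 0.05. Besides the 2 planned tests, 5 further list comparisons were tested, and the p-values of all 7 were adjusted together by the Benjamini-Hochberg method. The scripts, run in Python 3.11.15 with numpy 2.4.6 and pandas 2.3.3, were tested on simulated lists with planted sites.

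The members and gene lists were chosen with earlier results of these data known. The requirement that the peaks counted be linked to the gene itself was set after its effect on RPL14B had been seen. The genes named are those of sites in all lists, of the 10 strongest RP sites per medium, of the largest rank shifts, of sites in YPGly alone, of listed genes with a reproducible site and of counts of 5 or fewer; other names were chosen after their values were seen. Alternatives covered the flank, enrichment, list length, merging, number of calls, nearest gene, ranking and each repeat left out. Input libraries were not analysed here. The values of 1 RP gene, which stays in all counts, and 1 site sequence are not reported here.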

Additional observations from a re-analysis of the deposited data

Results flagged for a closer look

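Of 23 sets of 4 YPD values examined for a value far from the others, 2 stood out, and chance is expected to mark about 1 in 20 such sets. The RP share of the peaks was 4.75% in YPD repeat 4, against 6.87 to 7.20% in the other YPD lists, and still lay above every YPGly list, whose highest share was 1.35%. The promoter site of RPL5 had an enrichment of 1.37 in YPD repeat 2, against 1.64 to 1.68 in the other YPD lists, and that list also had the lowest median enrichment over all its peaks, 1.47.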

How the results depend on the processing

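The share of peaks linked to RP genes kept its direction and its exact permutation p of 0.0286 with other flanks, stronger peaks, shortened lists, the nearest gene and the P-stalk genes. The number of RP genes per list kept its direction in every alternative, but its p rose to 0.0571 with a flank of 0 bp (-18.2 genes), 250 bp (-21.0) and 1000 bp (-25.7), with an enrichment of at least 2 (-6.92) and with the P-stalk genes added (-26.6). With 3 lists against 4, a split other than the media can reach the observed difference even where the media do not overlap. At 0 bp they did not overlap, with 1 to 3 genes in YPGly and 12 to 25 in YPD. Overlap in the other settings is not given here. Leaving out each repeat gave differences from -28.3 to -22.0 genes and from -6.11 to -5.29 percentage points, in designs whose smallest p is 0.0667 or 0.1. With the replicate block, the differences were -28.3 genes and -6.11 points, with the sign-flip p of 0.25 that is the smallest 3 pairs allow. Same-numbered lists did not deviate together (correlations of -0.239, -0.152 and 0.0362 over 203 sites), so the numbers were not taken as pairs.

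RP genes with a reproducible site numbered 19 in either medium, 2 in YPGly and 18 in YPD. In this order the numbers were 12, 1 and 12 with a flank of 0 bp, 8, 1 and 7 with an enrichment of at least 2, and 6, 1 and 5 with lists held to the shortest. Calls in every repeat left 12 in either medium and 11 in YPD. The YPGly number was 1 with a flank of 250 bp and 7 with 1000 bp. Leaving out each repeat gave 12 to 19 in either medium, 2 in YPGly and 11 to 18 in YPD. The following alternatives were chosen after seeing the data. The nearest gene gave 17, 2 and 16, and counting all peaks of a linked site gave 19, 3 and 18, the added YPGly gene being RPL14B. Shares over all genes are given only for the main setting and for 0 bp. At 0 bp they were 9.09% of RP genes against 1.35% of all genes in YPD, and 0.758% against 0.816% in YPGly. For the other alternatives, whether RP genes stood above all genes is not shown. The rank shifts kept their direction throughout and passed in none after adjustment; leaving out each repeat gave 79.5 to 96.8 ranks for RPL15A and 41.8 to 54.7 for RPL14B, and ranks by score gave 41.7 and 15.2.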
